A study of Homo sapiens with 36 samples.

Results

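The miR-30 family was followed through 7 tables of mature miRNA levels, each built from an aneuploid human cell line and its near-diploid control. Its members were the 5 rows named hsa-miR-30a-5p, hsa-miR-30b-5p, hsa-miR-30c-5p, hsa-miR-30d-5p and hsa-miR-30e-5p, of 509 miRNA names listed in at least 1 table. All 5 stood in all 7 tables, as did 205 miRNAs in all. No other row of a miR-30 hairpin was listed, so the 3p arms were not analysed here.

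The study asked what happens to miRNAs in cells with an extra chromosome, and sequenced small RNAs from 36 libraries in 12 groups of 3. HCT116 is a near-diploid colon carcinoma line and RPE1 a line from the pigmented epithelium of the retina, kept growing by telomerase (hTERT). An asterisk marks cells with stable expression of histone H2B fused to GFP, the figure after a slash is the number of copies of a chromosome, and c marks a clone grown from a single cell. HCT116 5/4 carried 4 copies of chromosome 5, was made in another laboratory and was set against HCT116. HCT116 18/3 c2, HCT116* 3/3 c11 and HCT116* 8/3 c7 carried 3 copies of chromosomes 18, 3 and 8, and all were set against the same 3 HCT116* libraries, although HCT116 18/3 c2 itself has no H2B-GFP by its labels. RPE1 5/3 12/3 carried 3 copies of chromosomes 5 and 12, of which 12 was gained spontaneously, and was set against RPE1. RPE1* 7/3, which also gained chromosomes 9 and 12 spontaneously, and RPE1* 21/3 were set against separate sets of RPE1* libraries. Apart from HCT116 5/4, the lines were made by transfer of single chromosomes in microcells. Each of the 7 aneuploid karyotypes is represented by 1 line. The tables hold miRNAs only, so no mRNA marker of HCT116 or RPE1 cells could be checked.

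Each table gives 1 mean per miRNA, taken by the authors over the 3 line and 3 control libraries after division of the counts by size factors. No values of single libraries were used here, and the levels below are the authors' means with no error, no n and no test. A level of a line and a level of its control are therefore mixed in equal parts in each value. The tables listed 273 to 434 miRNAs with summed means of 5556870 to 11221232. The depth of a single library is unknown from them. In bulk cultures such as these, fewer cells that make a miRNA and less of it per cell cannot be told apart.

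A mature miRNA guides Argonaute proteins to messenger RNAs, which it recognises mainly by pairing of its seed, bases 2 to 8 from the 5′ end. miRNAs with the same seed form a family and can share targets. In the miR-30 family, the members differ in the bases after the seed and are made from hairpins at several loci. They are known as abundant miRNAs of epithelial cells, and miR-30 has been described as a brake on epithelial to mesenchymal transition.

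Mature sequences were found for 3 of the 5 members in the RefSeq table of GRCh38.p14. They are shown because their common seed and near-identity decide which reads can be told apart. Capitals mark the seed.
hsa-miR-30a-5p: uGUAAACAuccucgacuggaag
hsa-miR-30c-5p: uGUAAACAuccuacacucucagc
hsa-miR-30e-5p: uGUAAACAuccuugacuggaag

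The 3 sequences had the seed GUAAACA in common. Of the 416 listed names with a sequence, 0 outside the family had this seed. With positions counted from 1 at the 5′ end, miR-30a and miR-30e differed at 1 of 22 positions, by C13U. miR-30c differed from miR-30a at 5 of 22 positions, and from miR-30e also at 5. The first difference of each pair was at position 13, so a read has to cover that base to be assigned to miR-30a or to miR-30e. No sequence is given for hsa-miR-30b-5p and hsa-miR-30d-5p.

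The family came from 3 pairs of hairpins in the GENCODE annotation of GRCh37, the build to which the reads were mapped. MIR30A (chr6:72113254-72113324, minus strand) lay in an intron of the long noncoding RNA gene LINC00472, and MIR30C2 (chr6:72086663-72086734, minus strand) in an exon of the same gene, 26519 bases away. MIR30E (chr1:41220027-41220118, plus strand) and MIR30C1 (chr1:41222956-41223044, plus strand) lay in introns of NFYC, which encodes a subunit of the transcription factor NF-Y, with 2837 bases between them. MIR30B (chr8:135812763-135812850, minus strand) and MIR30D (chr8:135817119-135817188, minus strand) lay 4268 bases apart in introns of a long noncoding RNA gene without a symbol. Mature miR-30c can come from either of the hairpins MIR30C1 and MIR30C2, so its reads cannot be assigned to chromosome 1 or 6. Chromosome 8 was gained in HCT116* 8/3 c7, and chromosomes 1 and 6 were gained in none of the lines.

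As each table was normalised on its own, the means were first brought to 1 scale. The factor of a table was the median ratio, over the 100 miRNAs with a mean of at least 100 in all 7 tables, of its means to the geometric mean over tables. The values are called scaled means below. Members are compared with each other as mature miRNAs of nearly the same length, 22 or 23 bases in those with a sequence. Whether different members were captured equally well in the libraries was not tested, so orders and shares of members refer to counts.

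miR-30a was the member whose level differed most between tables. Its scaled mean was 3080 in the table of HCT116 5/4, 2333 for HCT116 18/3 c2, 26196 for HCT116* 3/3 c11 and 973 for HCT116* 8/3 c7. In the RPE1 5/3 12/3, RPE1* 7/3 and RPE1* 21/3 tables it was 368261, 399827 and 422054. The 3 RPE1 tables lay close together and above all HCT116 tables, while among the latter HCT116* 3/3 c11 stood apart. The highest scaled mean was 434 times the lowest, the fifth widest range among the 205 miRNAs, whose median range was 4.25-fold. By rank within a table, miR-30a was number 4, 5 and 4 in the RPE1 tables, number 15 in HCT116* 3/3 c11 and number 51 to 74 in the other HCT116 tables.

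miR-30d, encoded on chromosome 8, was the most abundant member in all 4 HCT116 tables. Its scaled means there were 69912, 123819, 119075 and 107822 in the order above, and 37982, 84000 and 53458 in the RPE1 tables. HCT116 and RPE1 overlapped, since RPE1* 7/3 was above HCT116 5/4. The range over the 7 tables was 3.26-fold.

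The level of miR-30e, the nearest to miR-30a among the members with a sequence, had the narrowest range on this scale. It was 36109, 27021, 26332 and 23234 in the HCT116 tables and 39906, 21701 and 31293 in the RPE1 tables, again with overlap, and its range was 1.84-fold. Only 8 of the 205 miRNAs had a narrower range than miR-30e on this scale. On shares of the summed mean of each table, miR-30c instead had the narrowest range of the members, 2.54-fold.

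For miR-30c the scaled means were 7935, 7025, 7332 and 7049 in the HCT116 tables. They were 17465, 18518 and 25827 in the RPE1 tables. Every RPE1 table was above every HCT116 table, with a range of 3.68-fold over all 7, but as a share of the summed mean of each table the groups overlapped.

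miR-30b, the neighbour of miR-30d on chromosome 8, was the least abundant member in 5 tables, and miR-30a was the least abundant in HCT116 5/4 and HCT116* 8/3 c7. The miR-30b level was 3443, 1311, 1452 and 1253 in the HCT116 tables and 2241, 926 and 2174 in the RPE1 tables. The cell types overlapped and the range was 3.72-fold.

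The background to these ranges is wide. Over the 7 tables a range of at least 3-fold was found for 147 of 205 miRNAs (71.7%), and for 4 of the 5 members. That count is near the background and is not a result about the family.

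**Figure D1:**
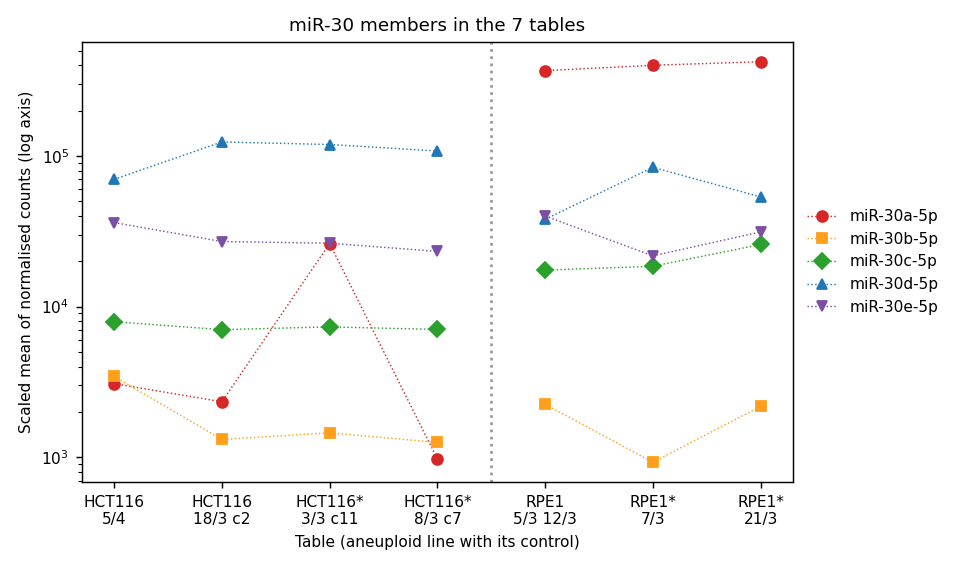
Scaled mean (log axis) of the 5 miR-30 members in the 7 tables, HCT116 tables on the left and RPE1 tables on the right, 1 point per member and table with no error available and dotted lines that only lead the eye. miR-30a runs from 973 to 422054, while the other 4 members keep within ranges of 1.84-fold to 3.72-fold.

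The levels put in order show how the family's leading member differed between the cell types. In HCT116 18/3 c2 the order was miR-30d, miR-30e, miR-30c, miR-30a and miR-30b. In HCT116 5/4 and HCT116* 8/3 c7 it was miR-30d, miR-30e, miR-30c, miR-30b and miR-30a, with miR-30b and miR-30a close to each other. HCT116* 3/3 c11 kept miR-30d first, followed by miR-30e and miR-30a at nearly equal means. In the RPE1 tables miR-30a was first, miR-30d and miR-30e followed, then miR-30c, and miR-30b was last, with miR-30e slightly above miR-30d in RPE1 5/3 12/3. As there are no values of single libraries, no neighbours in these orders could be tested.

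Shares within a table do not depend on how tables were scaled. miR-30a made up 79.1%, 76.2% and 78.9% of the summed family mean in the 3 RPE1 tables. Its share was 14.5% in HCT116* 3/3 c11, and only 2.56%, 1.44% and 0.694% for the lines HCT116 5/4, HCT116 18/3 c2 and HCT116* 8/3 c7. The share of miR-30d was 58.0% to 76.8% in the HCT116 tables and 8.15% to 16.0% in the RPE1 tables. miR-30e held 14.6% to 16.7% in the tables with HCT116* controls, a larger share in HCT116 5/4 and 4.13% to 8.57% in RPE1. miR-30c held 3.53% to 6.59% over all 7 tables and miR-30b 0.176% to 2.86%. The family as a whole took 2.12% to 2.61% of the summed mean of the HCT116 tables and 3.94% to 5.32% of the RPE1 tables. Without miR-30a, its summed scaled mean was 117398 to 159177 in HCT116 and 97594 to 125145 in RPE1, and the cell types overlapped.

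**Figure D2:**
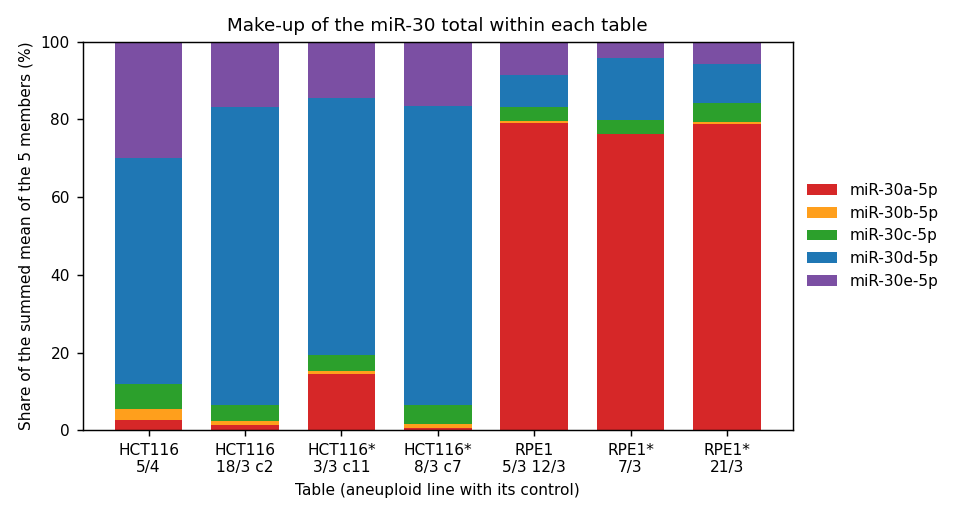
Share of each member in the summed miR-30 mean of each table, in percent, as stacked bars from 0 to 100. miR-30d is the largest part in the 4 HCT116 tables, at 58.0% to 76.8%, and miR-30a in the 3 RPE1 tables, at 76.2% to 79.1%.

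All RPE1 tables exceeded all HCT116 tables for 2 of the 5 members, miR-30a and miR-30c, against 39 of 205 miRNAs (19.0%) that did so and 60 (29.3%) for which all RPE1 tables were lower. The ratio of geometric means, RPE1 over HCT116, was 108 for miR-30a, 2.77 for miR-30c, 1.08 for miR-30e, 0.976 for miR-30b and 0.540 for miR-30d. miR-30a was above in all RPE1 tables under each of the 4 scales tried, by 61.9-fold to 130-fold. For miR-30c the fold lay between 1.59 and 3.34. For miR-30b and miR-30e the direction turned with the scale: miR-30b went from 0.561 to 1.18 times, and miR-30e was at 0.621 and 0.781 times on shares of the summed mean and on the means as deposited. For miR-30d every RPE1 table was lower only on the scale of shares of the summed mean. The scales differed by a common shift: the RPE1 minus HCT116 difference of the median miRNA moved by 0.27, -0.47 and -0.80 on the log2 scale against the scale used here.

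Whether miR-30a moved alone was read from the 3 tables that share the HCT116* control libraries, scaled again over 150 miRNAs. With the same controls in each, a difference between these means comes from the line's libraries or from the separate normalisation of the tables. The miR-30a mean was 2898 for HCT116 18/3 c2, 31121 for HCT116* 3/3 c11 and 1179 for HCT116* 8/3 c7. The table of HCT116* 3/3 c11 was far above both others, which were 2.46-fold apart. The range was 26.4-fold, second of 277 miRNAs.

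The other 4 members differed far less in these tables. In the same order of lines, miR-30b was at 1628, 1725 and 1518, and miR-30c at 8725, 8711 and 8540. For miR-30d the means were 153778, 141464 and 130634, and for miR-30e 33559, 31284 and 28149. Their ranges were 1.14-fold, 1.02-fold, 1.18-fold and 1.19-fold, below the median of 1.24-fold over all 277 miRNAs. In HCT116* 3/3 c11 they were between the values of the other lines or, for miR-30b, slightly above both, so none came near the move of miR-30a. A range of at least 3-fold was found for 6 of 277 miRNAs (2.17%) and for 1 of the 5 members, miR-30a. Each mean holds the shared control in equal part, so these ranges are narrower than those of the lines alone. With equal control levels, loss of a miRNA in a line cannot by itself reach 3-fold. The count is then of miRNAs above their control in at least 1 line, and losses in other members could be missed. The 277 miRNAs are those listed in all 3 tables whose scaled means average at least 10 over them. Of the 6, 3 had a mean under 10 in at least 1 table, so they entered through the table where they were high. The table of HCT116* 3/3 c11 listed no mean under 11.9 before scaling, so miRNAs lower there were left out. Among the 158 miRNAs whose scaled means average at least 100, miR-30a was the only one past 3-fold.

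**Figure D3:**
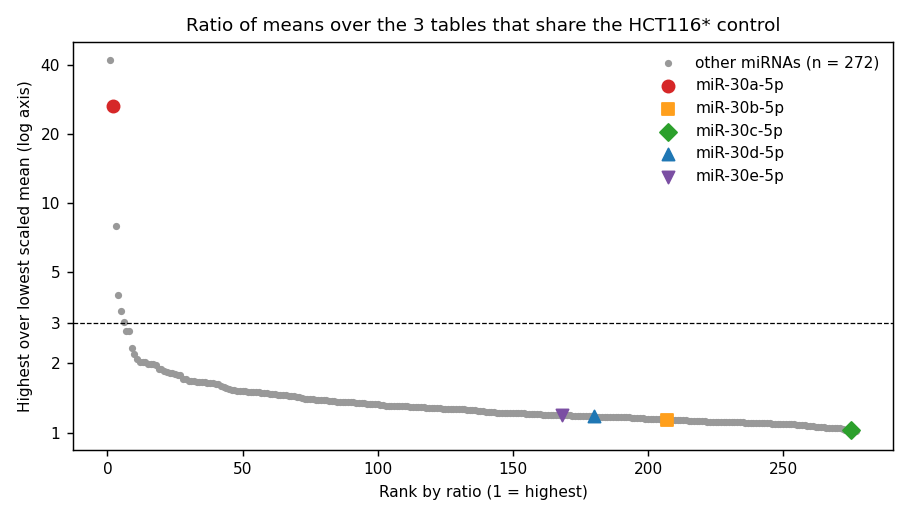
Highest over lowest scaled mean in the 3 tables that share the HCT116* controls (log axis) for each of 277 miRNAs, ordered by rank from the widest range on the left, with the miR-30 members marked and a dashed line at 3-fold. miR-30a lies at 26.4-fold in rank 2, and the other members lie at 1.02-fold to 1.19-fold.

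Equal parts of line and control in each mean set a lower limit on the change of miR-30a. The control level is at most 2 times the lowest of the 3 means, which is 2358. If the control level was the same in the 3 tables, the level of miR-30a in HCT116* 3/3 c11 was at least 25.4 times that of its control. Were the control 1.5 times higher in that table than in the others, through normalisation, the limit would be 16.6 times, and with the control limited by the next lowest table it would be 9.74 times. The means alone cannot show whether the control level was equal. For HCT116 18/3 c2 the same limits were 1.46 times with equal controls and 0.638 times with the allowance of 1.5, so the direction of miR-30a in that line is not fixed by the means. For HCT116* 8/3 c7, as the lowest table, no limit can be had.

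Reads shared with miR-30e were looked at through the same values. From HCT116 18/3 c2 to HCT116* 3/3 c11, the scaled mean of miR-30a was higher by 28223, that of miR-30b by 96, that of miR-30c differed by -14, that of miR-30d by -12313 and that of miR-30e by -2275. In this comparison the difference of miR-30a was the largest, with that of miR-30d next in size. The differences of miR-30d and of miR-30e, the nearest to miR-30a among the members with a sequence, were of opposite sign. From HCT116* 8/3 c7 to HCT116* 3/3 c11, miR-30e was higher by 3135 and miR-30d by 10831, while miR-30a was higher by 29942, so here the signs were the same. Without sequences for miR-30b and miR-30d, their closeness to miR-30a is not known here. Whether reads were shared between members was not tested.

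Neither chromosome 6, which holds MIR30A, nor chromosome 1, which holds MIR30E, was gained in HCT116* 3/3 c11. MIR30C2, the chromosome 6 neighbour of MIR30A, feeds mature miR-30c, whose range in these tables was 1.02-fold. As miR-30c also comes from MIR30C1 on chromosome 1, its level does not show the output of MIR30C2 alone.

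miR-30a is a miRNA of high level in the RPE1 tables, so the levels of other miRNAs with such a pattern are given beside it. By root-mean-square difference of the centred log2 scaled mean over the 7 tables, the nearest of 204 miRNAs to miR-30a were hsa-miR-138-5p (0.90), hsa-miR-382-5p (1.29), hsa-miR-369-5p (1.36), hsa-miR-379-5p (1.56) and hsa-miR-204-5p (1.56). In the RPE1 tables hsa-miR-379-5p, a miRNA of the imprinted cluster on chromosome 14, had scaled means of 12608, 20030 and 12442. In HCT116* 3/3 c11 it was at 52.2, against 27.5 to 48.8 in the other HCT116 tables. hsa-miR-204-5p, known for its abundance in retinal pigment epithelium, was at 4072, 19318 and 5211 in the RPE1 tables, at 31.1 in HCT116* 3/3 c11 and at 18.8 to 24.6 in the other HCT116 tables. Both were thus near their HCT116 levels in the table where miR-30a was high. hsa-miR-382-5p and hsa-miR-369-5p were also low there, at 14.9 and 9.7, against 3.7 to 11.4 and 6 to 9.3 in the other HCT116 tables. The lowest mean listed for HCT116* 3/3 c11 was 11.9 before scaling, so much lower values could not be seen there. hsa-miR-138-5p, in contrast, was at 162.3 in HCT116* 3/3 c11, at 3.8 to 4.3 in the other HCT116 tables and at 376.5 to 1519 in the RPE1 tables. As it was picked for the nearest pattern to miR-30a in these same tables, being high in the same ones follows from the choice. At its level in the other HCT116 tables, it would have been under the lowest mean listed for HCT116* 3/3 c11.

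Family members were far from miR-30a by the same measure. miR-30c was the nearest of them, in place 24 of 204 at 2.92, then miR-30e in place 84 at 3.55, miR-30b in place 96 at 3.65 and miR-30d in place 138 at 4.01. Among the other 4 members, the pairs were 0.35 to 1.25 apart, least for miR-30b and miR-30e and most for miR-30c and miR-30d. These are descriptions over 7 tables, of which 3 share control libraries.

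The neighbours on chromosome 8, miR-30b and miR-30d, were then compared in HCT116* 8/3 c7, the line that gained this chromosome. Against the geometric mean of the other 2 tables with HCT116* controls, the scaled mean was 0.886 times for miR-30d and 0.906 times for miR-30b. miR-30e on chromosome 1 was at 0.869 times and miR-30c at 0.980 times, so the chromosome 8 members lay between these, and all 4 were below 1. If the line had 1.5 times the control level and both other lines had the control level, the ratio would be 1.25. Of 8 miRNAs whose names were matched to loci on chromosome 8 only, 3 were above 1 and the median of the 8 was 0.921 (range 0.741 to 2.58). This set includes miR-30b and miR-30d themselves, both below 1, so it is not a background apart from them. Of 214 miRNAs matched to 1 other chromosome, 115 were above 1, with a median of 1.01. Left out of both sets were miRNAs with loci on several chromosomes and names without a matched locus, so the chromosome 8 set may be incomplete. miR-30a was at 0.124 times, the lowest of 277, since HCT116* 3/3 c11 is in the comparison.

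Ratios within a table, which are free of scaling, showed a second pattern in the members other than miR-30a. miR-30d over miR-30b was 20.3 in HCT116 5/4, 16.9 in RPE1 5/3 12/3 and 24.6 in RPE1* 21/3. In HCT116 18/3 c2, HCT116* 3/3 c11, HCT116* 8/3 c7 and RPE1* 7/3 it was 94.4, 82.0, 86.1 and 90.8. The groups did not overlap, and each held lines of both cell types. The first 3 tables are those for which the authors' model paired the replicates to account for sequencing batches. These tables are a different set from the gains of chromosome 8. This split was made after the values were seen.

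In the 3 tables with a batch term, miR-30b and miR-30e were above all 4 other tables and miR-30d was below them. Among 205 miRNAs, 28 (13.7%) were above, 39 (19.0%) were below and 67 (32.7%) were either. miR-30b with the batch term was 2.58 times its level without it within HCT116 and 2.39 times within RPE1. miR-30e was at 1.42 and 1.63 times, and miR-30d at 0.599 and 0.536 times. miR-30c, at 1.11 and 1.15 times, differed less on this scale. miR-30a was at 0.789 and 0.986 times, but its HCT116 value averages over tables far apart. It sets 3080 in HCT116 5/4 against 2333 in HCT116 18/3 c2, 26196 in HCT116* 3/3 c11 and 973 in HCT116* 8/3 c7. As shares of the summed mean, miR-30c was also above in all 3 tables with a batch term, at 1.33 and 1.47 times. On the means as deposited, and as shares of the summed mean, miR-30b and miR-30e overlapped between the table sets, and miR-30d overlapped as a share, though within each cell type the direction of all 3 was the same on all 4 scales. Which libraries belong to which sequencing batch is not given in the labels, and the batch cannot be told apart from the lines and controls themselves.

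Within tables of 1 kind, the contrast of cell types for miR-30a was of similar size on geometric means. Only 1 HCT116 table had a batch term and only 1 RPE1 table had none, so each contrast below has 1 table on 1 side. The miR-30a levels of the HCT116 tables without a batch term lay far apart, as listed above, and were averaged here. HCT116* 3/3 c11, the highest of them, raises that average and lowers the contrast, so the similar size depends on this table. RPE1 over HCT116 was 128 times among the tables with a batch term and 102 times among those without. For miR-30c it was 2.68 and 2.60 times. For miR-30b it was 0.641 and 0.693 times, for miR-30d 0.645 and 0.720 times and for miR-30e 0.979 and 0.852 times, the first value each time from tables with a batch term.

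The ratio of miR-30a to miR-30e, which differ by 1 base, was 0.995 in HCT116* 3/3 c11. It was 0.0853, 0.0863 and 0.0419 in the tables of HCT116 5/4, HCT116 18/3 c2 and HCT116* 8/3 c7. For the RPE1 tables it was 9.23, 18.4 and 13.5, so HCT116* 3/3 c11 lay between the other HCT116 tables and RPE1. The ratio of miR-30e to miR-30c, whose hairpins include the pair in NFYC, was 4.55, 3.85 and 3.59 in the first 3 HCT116 tables, slightly lower in HCT116* 8/3 c7, and 2.28, 1.17 and 1.21 in the RPE1 tables, all below HCT116.

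**Figure D4:**
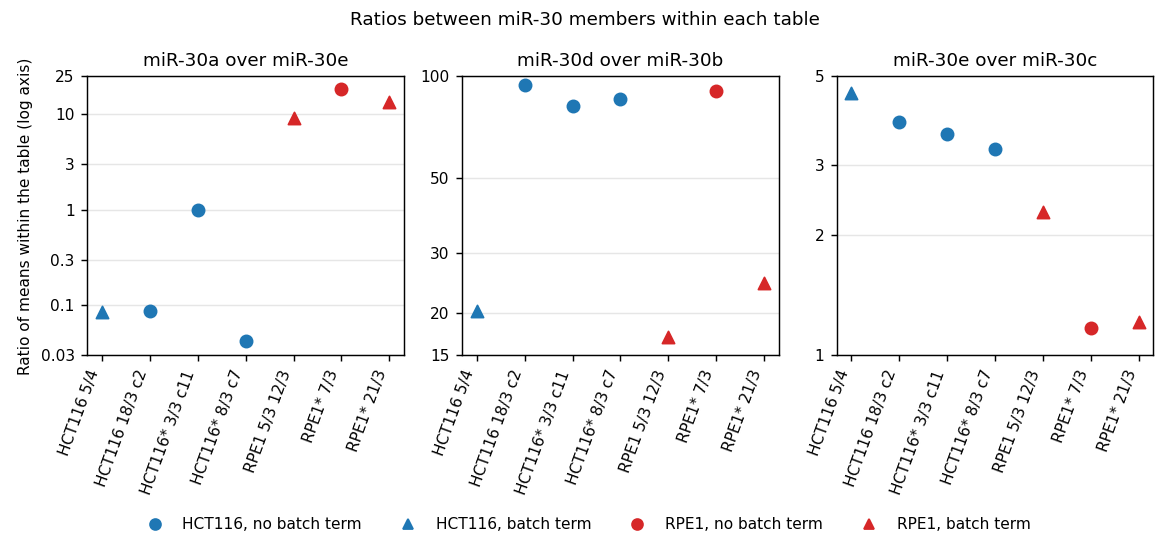
Ratio of the means of 2 members within each of the 7 tables (log axes), for miR-30a over miR-30e, miR-30d over miR-30b and miR-30e over miR-30c, with HCT116 in blue, RPE1 in red and triangles for the 3 tables whose fit by the authors had a batch term. miR-30a over miR-30e goes from 0.0419 to 18.4 and is 0.995 in HCT116* 3/3 c11, while miR-30d over miR-30b is 16.9 to 24.6 in the triangles and 82.0 to 94.4 in the circles.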

How the data were processed

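Small RNA libraries of 36 cultures were sequenced. Per the labels and methods, the authors removed adapters with cutadapt, mapped to hg19 and counted miRNAs with mirdeep2 (v2.0.0.8), running a line with its control. DESeq2, version not given in the sources used here, was applied by the authors. The deposited mean is a signal: counts divided by size factors, averaged by the authors over 6 libraries. The other 5 columns of each deposited table hold the authors' comparison of line and control (log2 fold change, its standard error, statistic, p-value and adjusted p-value) and were not used. The planned count model needs single libraries, so no test was made.

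The names and means were read with Python 3.11.15, numpy 2.4.6 and pandas 2.3.3, and plotted with matplotlib 3.10.9. Tables were scaled by the median ratio over miRNAs with a mean of at least 100 in all tables compared, and ranges over the 3 HCT116* tables used miRNAs whose scaled means average at least 10 over them. The scaling was tried on simulated data, and no result of that trial is given here. Simulated data cannot show whether the scale holds between the HCT116 and RPE1 tables. Between these tables, the direction of miR-30b and miR-30e turned with the scale. Named miRNAs were the 5 members, the 5 widest ranges in the HCT116* tables and the 5 nearest to miR-30a, with let-7 and miR-181 by counts and range. The members, lists and rules were chosen with earlier results of these data known. Alternatives were other scales, filters, fold limits and leaving out a table.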

Additional observations from a re-analysis of the deposited data

How the results depend on the processing

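Of 91 alternative values, all of them ranges, counts or lower limits that have no direction to change, 77 moved by less than 1.5 times and 14 by more. Directions that turned with the scale are given in the text above. The 7-table range of miR-30a was 288-fold on the means as deposited and 281-fold on shares of the summed mean. On such shares, the ranges of miR-30b, miR-30d and miR-30e were 8.71-fold, 5.04-fold and 3.90-fold, and that of miR-30c was 2.54-fold, the narrowest. Leaving out each table in turn gave 180 to 452-fold for miR-30a (180-fold without HCT116* 8/3 c7), 2.43 to 4.06 for miR-30b, 2.65 to 3.86 for miR-30c, 2.24 to 3.37 for miR-30d and 1.65 to 1.92 for miR-30e. In the 3 tables with HCT116* controls, leaving out one gave 2.45 to 26.3-fold for miR-30a, 1.07 to 1.13 for miR-30b, 1.01 to 1.02 for miR-30c, 1.07 to 1.17 for miR-30d and 1.06 to 1.19 for miR-30e. The 26.4-fold range of miR-30a rests on HCT116* 3/3 c11, without which it was 2.45-fold, and it was 10.9-fold without HCT116* 8/3 c7. The lower limit of the miR-30a change, 25.4 times, was 9.74 times with the control limited by the next lowest table and 16.6 times with a control 1.5 times higher. The count of 6 miRNAs past 3-fold was 14 at a limit of 2, 3 at a limit of 5, 1 at an average mean of at least 100 and 7 on shares of the summed mean. The allowance of 1.5 and the split of tables by batch term were chosen after seeing the data. No paired analysis was possible because the tables give pooled means only, and for the same reason no library could be left out. Adding other rows of miR-30 hairpins gave no value, as 0 were listed. Without values of single libraries, no difference above was tested.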

Other observations

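Beside miR-30a, 5 other miRNAs differed at least 3-fold over the 3 tables with HCT116* controls, all of them at low means. Of these, hsa-miR-138-5p, hsa-miR-302a-5p and hsa-miR-122-5p had a mean under 10 in at least 1 of the tables. In HCT116 18/3 c2, HCT116* 3/3 c11 and HCT116* 8/3 c7, hsa-miR-138-5p had scaled means of 4.99, 193 and 4.61, a range of 41.8-fold. hsa-miR-302a-5p was at 6.22, 49.6 and 10.7 and hsa-miR-3617-5p at 11.6, 45.8 and 20.1, while hsa-miR-122-5p, known as a liver miRNA, had a range of 3.03-fold. These 4 were highest in the table of HCT116* 3/3 c11, as was miR-30a. The lowest mean listed there, before scaling, was 11.9, against 2.34 for HCT116 18/3 c2 and 2.14 for HCT116* 8/3 c7. A miRNA lower than that in HCT116* 3/3 c11 was thus not compared. For miRNAs of low level, being highest in that table therefore follows in part from the listing. hsa-miR-4431 was highest in HCT116* 8/3 c7, at 72.5 against 23.0 and 21.4. hsa-miR-122-5p was named after its values were seen.

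Other families of several loci gave a comparison for a member that moves apart from its relatives. In the same 3 tables, the 8 listed let-7 members, which are known to rise with differentiation, had ranges of 1.01-fold to 1.30-fold. The 4 listed miR-181 members ranged from 1.43-fold to 2.03-fold. Neither family had a member past 3-fold, against 1 of 5 in miR-30. With equal control levels, a loss alone could not have passed this limit. Over all 7 tables, 4 of 8 let-7 members, 3 of 4 miR-181 members and 4 of 5 miR-30 members were past 3-fold, beside 71.7% of all miRNAs.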
